A study of Mus musculus with 10 samples.

Results

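The 9 genes examined here belong to the proneural and intermediate progenitor programme and were measured in the cortex of mouse embryos at E12.5, in 5 libraries labelled Emx2 KO and 5 labelled WT. They are Neurog1, Neurog2, Insm1, Eomes, Btg2, Hes6, Neurod1, Neurod4 and Gadd45g, chosen by symbol from the 56748 gene identifiers of the count files, and all 9 were found. The labels give the knockout, the wild type, the stage and the tissue. They give no allele or strain. Whether a library stands for 1 embryo is not stated, so all p-values below refer to the variation among libraries, part of which may be technical. The molecule was total RNA of the cortex, which forms from the dorsal telencephalon. In such bulk samples more cells of a type and more RNA per cell cannot be told apart.

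Cortical neurons arise from radial glia that line the ventricle. A radial glial cell that commits to neurogenesis switches on Neurogenin genes, which encode basic helix-loop-helix (bHLH) proneural transcription factors. Many of its daughters pass through an intermediate progenitor stage, marked by the T-box factor Eomes (Tbr2) and the zinc finger factor Insm1, before they become glutamatergic neurons. Notch signalling between neighbouring cells, acting through Hes repressors, holds proneural genes down in the cells that remain progenitors.

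Most of the 9 members were higher in the knockout cortex, but unevenly. Of the 9 members 7 rose and 0 fell, and the median log2 fold change was 0.29. Insm1, Neurog1 and Neurod4 had the largest changes, at 2.05-fold, 1.97-fold and 1.70-fold. Eomes, Neurog2, Hes6 and Btg2 passed with changes of at most 1.26-fold, and Neurod1 and Gadd45g did not pass. Under 26 alternative settings of the fit, Neurog2 missed the threshold in 21, Eomes in 13, Btg2 in 12 and Hes6 in 5. Of the 18163 genes tested 13.1% were called higher and 9.37% lower (edgeR quasi-likelihood test, adjusted p under 0.05), and the median log2 fold change over all of them was -0.01. In 4 of the 9, Insm1, Neurog1, Neurod4 and Btg2, every knockout library lay above every wild-type one, as in 9.63% of all genes, while 22.4% of genes were called in either direction. All 9 passed the filter on low counts, with 129 to 13065 reads per library.

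RefSeq start regions (GRCm38.p6) are listed for 8 of the 9 members. Those of the paralogue pairs Neurog1 and Neurog2, and Neurod4 and Neurod1, are shown because 1 gene of each pair stood among the large increases and the other did not. Each runs 5′ to 3′ from 250 bases before the annotated start to 50 after it. Capitals mark E-boxes (CANNTG, the core that bHLH factors bind) and N-boxes (CACNAG, read on both strands, a core described for Hes repressors). The 2 motifs did not overlap in these regions. For Neurod4 the upstream of its 2 listed starts is shown.
Neurog1, chr13:56252131-56252430, minus strand: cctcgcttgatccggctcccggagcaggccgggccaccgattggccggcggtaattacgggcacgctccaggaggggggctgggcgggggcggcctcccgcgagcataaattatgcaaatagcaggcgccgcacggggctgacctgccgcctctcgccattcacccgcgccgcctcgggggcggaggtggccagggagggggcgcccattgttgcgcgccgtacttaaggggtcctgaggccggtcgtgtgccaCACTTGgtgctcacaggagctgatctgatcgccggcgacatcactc
Neurog2, chr3:127632886-127633185, plus strand: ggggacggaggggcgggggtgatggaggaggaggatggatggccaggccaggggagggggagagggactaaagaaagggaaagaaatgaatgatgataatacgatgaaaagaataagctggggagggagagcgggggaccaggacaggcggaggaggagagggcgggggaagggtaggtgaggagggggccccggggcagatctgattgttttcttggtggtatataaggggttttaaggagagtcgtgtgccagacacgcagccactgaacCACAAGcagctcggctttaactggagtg
Neurod4, chr10:130280205-130280504, minus strand: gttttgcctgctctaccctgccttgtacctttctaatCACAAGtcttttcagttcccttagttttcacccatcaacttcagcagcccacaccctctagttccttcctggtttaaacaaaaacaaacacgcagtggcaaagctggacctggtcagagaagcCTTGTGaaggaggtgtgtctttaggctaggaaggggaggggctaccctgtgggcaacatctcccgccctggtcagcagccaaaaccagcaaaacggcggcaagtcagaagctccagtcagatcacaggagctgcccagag
Neurod1, chr2:79456587-79456886, minus strand: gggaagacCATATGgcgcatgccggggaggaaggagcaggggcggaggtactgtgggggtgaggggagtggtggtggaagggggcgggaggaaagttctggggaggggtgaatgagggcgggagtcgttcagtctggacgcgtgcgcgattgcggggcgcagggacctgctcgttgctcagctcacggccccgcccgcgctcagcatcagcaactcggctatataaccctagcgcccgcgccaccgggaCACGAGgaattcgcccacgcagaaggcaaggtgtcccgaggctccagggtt

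Neurog1 and Neurod1 each held 1 E-box in this window, and Neurog2 and Neurod4 held 0. N-boxes numbered 0 at Neurog1, 1 at Neurog2, 2 at Neurod4 and 1 at Neurod1. The other listed start of Neurod4 held 1 E-box and 1 N-box, as many as Neurod1, so the contrast of this pair depends on the start chosen. Over all 10 listed start regions of the members, 6 held an E-box and 7 an N-box, against 72.3% and 42.5% of 32851 mouse start regions of the same length. The 10 regions belong to 8 members, and those of Neurod4 overlap and share an N-box, so they are not separate regions. The E-box variant CAGATG (both strands) was in 0 of the 10, against 17.2% of all regions. The RBPJ motif GTGGGAA (both strands), through which Notch acts, was also in 0, against 6.38%. Such matches describe letters in a 300-base window and are no evidence of binding.

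Insm1, which drives progenitors from the ventricular surface into the basal, intermediate progenitor state, showed the largest fold change of the 9. It stood at 199, 210.6, 210.4, 224 and 241 CPM (read counts relative to the TMM-scaled library total) in the Emx2 KO libraries, against 84.7, 111, 125, 108 and 97.8 CPM in WT. The groups were far apart, with the lowest knockout library well above the highest wild-type one. The log2 fold change was 1.04 ± 0.09 (SE, edgeR adjusted p = 2.19e-05), and 1.29% of all genes tested had a larger one.

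Neurog1 and Neurog2 are the pair of proneural factors of the cortical ventricular zone, and Neurog2 is the main one there. Neurog1 stood at 55.9, 56.3, 46.8, 61.3 and 54.8 CPM in Emx2 KO and at 28.2, 23.0, 32.5, 28.4 and 27.2 CPM in WT. The groups did not overlap, and the log2 fold change was 0.98 ± 0.09 (SE, edgeR adjusted p = 3.43e-05). Neurog2 stood at 357, 379, 319, 399 and 466 CPM in Emx2 KO and at 288, 277, 362, 320.1 and 320.3 CPM in WT. Here the groups overlapped, since the knockout library at 319 CPM lay below 3 of the wild-type libraries. Neurog2 passed narrowly, with a log2 fold change of 0.29 ± 0.10 (SE, edgeR adjusted p = 0.0494), and it missed the threshold under 21 of 26 alternatives (adjusted p 0.0188 to 0.539 over all 26).

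The difference between the Neurogenins was itself larger than the spread between libraries. Within a library, log2 CPM of Neurog1 minus that of Neurog2 was -2.79 ± 0.17 in Emx2 KO and -3.47 ± 0.09 in WT (SD, n = 5 each, exact permutation test, two-sided, p = 0.00794, adjusted over 6 gene pairs 0.0159). That p is the smallest 5 against 5 libraries allow, and no knockout library overlapped a wild-type one.

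**Figure D1:**
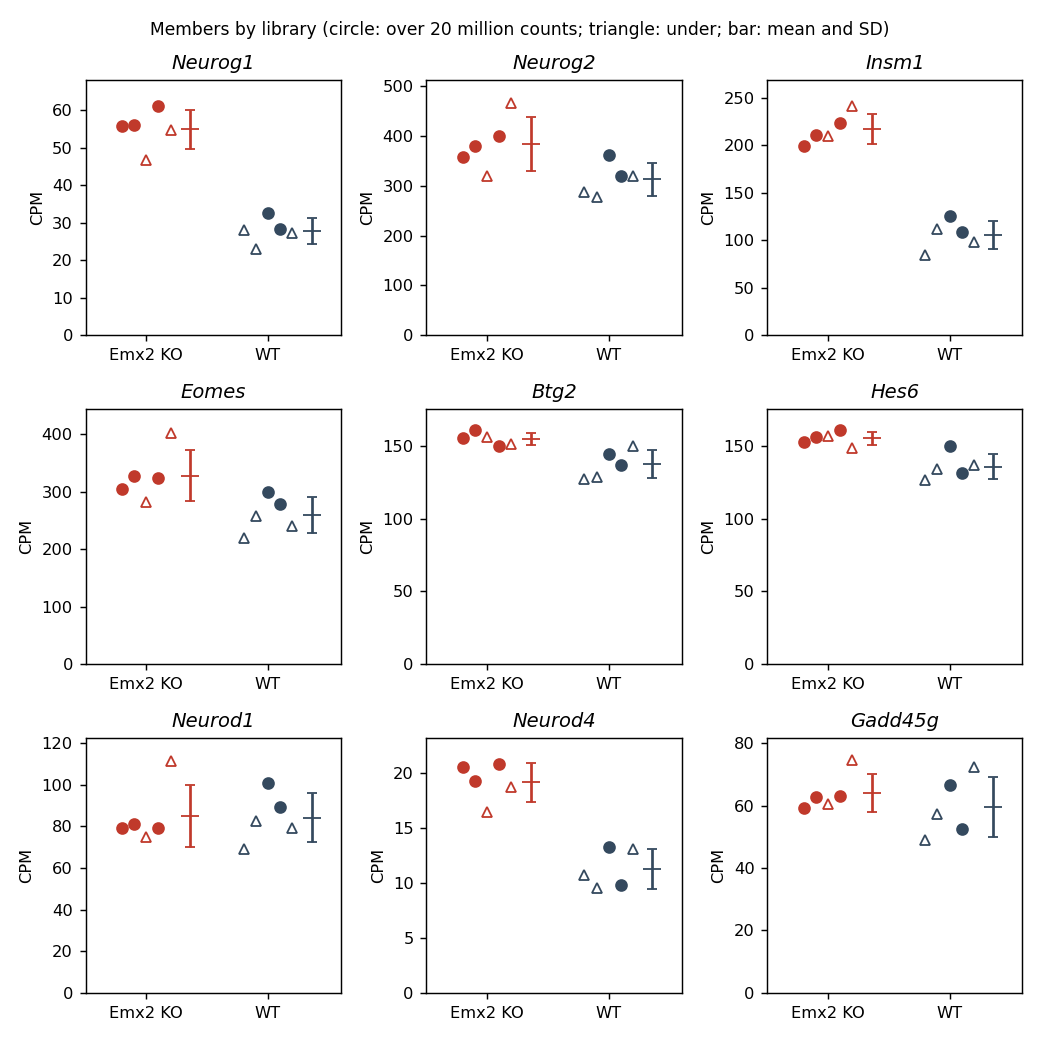
CPM (y axis, from 0) of each of the 9 members in the 5 Emx2 KO libraries (left, red) and the 5 WT libraries (right, dark), with the mean and SD beside them. The genotypes are separate for Neurog1, Insm1, Neurod4 and, by a small margin, Btg2, and overlap for the other 5 genes.

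Eomes, the T-box factor that marks intermediate progenitors, rose less than Insm1. Its level was 305, 327, 283, 324 and 403 CPM in Emx2 KO, against 219.6, 258, 300.2, 279 and 239.6 CPM in WT. One knockout library (283 CPM) lay below the highest wild-type library, and knockout replicate 5 was well above the rest. The log2 fold change was 0.34 ± 0.10 (SE, edgeR adjusted p = 0.0301). Without knockout replicate 5 it was 0.25 and did not pass (adjusted p = 0.0531), and over 26 alternatives adjusted p ran from 0.00825 to 0.408, with 13 of them past the threshold.

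Insm1 and Eomes kept different proportions in the genotypes. Log2 CPM of Insm1 minus that of Eomes was -0.59 ± 0.12 in Emx2 KO and -1.30 ± 0.07 in WT (SD, n = 5 each, exact permutation test, two-sided, p = 0.00794, adjusted 0.0159). For Eomes against Neurog2, its upstream activator in this lineage, the difference was -0.22 ± 0.05 in Emx2 KO and -0.28 ± 0.13 in WT (SD, n = 5 each), and no change was shown (exact permutation test, p = 0.444, adjusted 0.533). The same held for Eomes against the radial glial factor Pax6, with 0.18 ± 0.17 in Emx2 KO and 0.18 ± 0.13 in WT (SD, n = 5 each, exact permutation test, p = 0.984). Against Tbr1, the T-box factor that follows Eomes in postmitotic neurons, Tbr1 minus Eomes was 0.40 ± 0.14 in Emx2 KO and 0.06 ± 0.13 in WT (SD, n = 5 each, exact permutation test, p = 0.0238, adjusted 0.0357). In 7 of the 10 fits that leave out 1 library the Tbr1 and Eomes pair reached an adjusted p of 0.0714 and no longer passed, while its difference stayed between 0.29 and 0.39.

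Neurod4 and Neurod1 are bHLH factors that act after the Neurogenins, as cells differentiate. Neurod4 was the scarcest member, at 20.6, 19.2, 16.4, 20.8 and 18.8 CPM in Emx2 KO and 10.7, 9.52, 13.3, 9.80 and 13.1 CPM in WT. The groups did not overlap, and the log2 fold change was 0.77 ± 0.11 (SE, edgeR adjusted p = 0.000494). Neurod1, which follows Eomes in late intermediate progenitors, stood at 79.1, 81.1, 74.7, 79.1 and 111 CPM in Emx2 KO and 69.0, 82.6, 100.8, 89.0 and 78.9 CPM in WT. Its groups overlapped almost fully, and 4 of the 5 knockout libraries lay between 74.7 and 81.1 CPM.

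The log2 fold change of Neurod1 was 0.01 ± 0.12 (SE, edgeR adjusted p = 0.972). Among the 5 libraries of over 20000000 counts alone it was -0.25 ± 0.06 (SE, 3 Emx2 KO, 2 WT, adjusted p = 0.0369), a call in the opposite direction. In the small libraries it was 0.28 ± 0.17 (2 Emx2 KO, 3 WT, adjusted p = 0.390), and without knockout replicate 5 it was -0.11. Within each size class the genotypes shared no title code, so genotype and title code cannot be told apart in these 2 fits by size. Neurod1 minus Neurod4 was 2.11 ± 0.26 in Emx2 KO and 2.84 ± 0.25 in WT on the log2 CPM scale (SD, n = 5 each, exact permutation test, two-sided, p = 0.00794, adjusted 0.0159), so these 2 genes differed in their response. That p is the smallest possible here, but the groups nearly touched, at 2.538 in the highest Emx2 KO library and 2.544 in the lowest WT one. The annotated gene Cerkl overlaps Neurod1, and no source used here gives the strand setting of the counts. Cerkl held 0.165 CPM in Emx2 KO and 0.309 CPM in WT. Gm33460, which overlaps Eomes, held 1.84 CPM in Emx2 KO and 1.30 CPM in WT.

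Hes6, Btg2 and Gadd45g act at the exit from the cell cycle and from Notch signalling. Hes6 encodes a bHLH protein that counters Hes1, and stood at 153, 157, 157, 161 and 149 CPM in Emx2 KO and 127, 134, 150.1, 131 and 137 CPM in WT. Only wild-type replicate 3 reached into the knockout range, and the log2 fold change was 0.19 ± 0.05 (SE, edgeR adjusted p = 0.0108). Btg2, an antiproliferative gene switched on in progenitors before a neurogenic division, stood at 156, 161, 156, 150.1 and 151 CPM in Emx2 KO and 127, 129, 145, 137 and 149.9 CPM in WT. The 2 ranges nearly touched, and the log2 fold change was 0.17 ± 0.05 (SE, edgeR adjusted p = 0.0239).

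Both changes were small, and Btg2 missed the threshold under 12 and Hes6 under 5 of 26 alternatives. Upper-quartile scaling gave Btg2 0.14 (adjusted p = 0.0606), and all 26 alternatives kept its log2 fold change above 0. Gadd45g, a growth arrest gene expressed in newly committed progenitors, stood at 59.1, 62.9, 60.5, 63.2 and 74.5 CPM in Emx2 KO and 49.0, 57.4, 66.5, 52.5 and 72.4 CPM in WT. The ranges overlapped, and the log2 fold change of 0.11 ± 0.10 (SE, edgeR adjusted p = 0.529) did not pass.

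**Figure D2:**
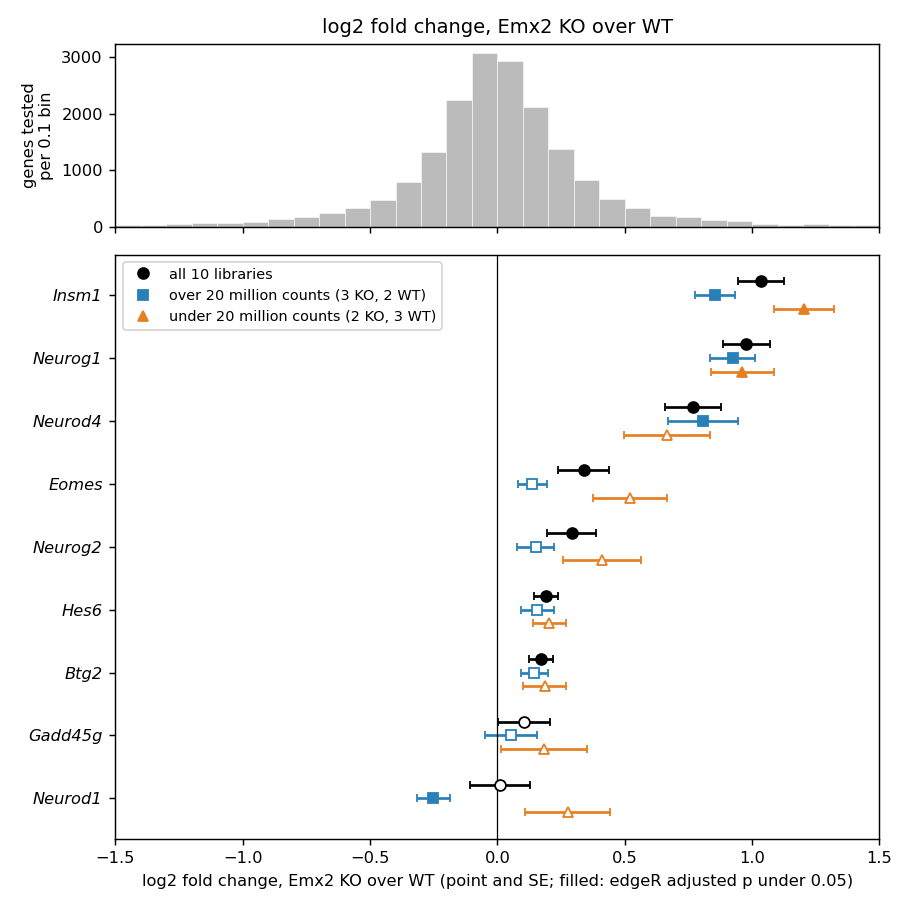
Lower panel: log2 fold change of Emx2 KO over WT with its SE for each member, in all 10 libraries (black circles), in libraries over 20000000 counts (blue squares) and under (orange triangles), with filled symbols for edgeR adjusted p under 0.05. Upper panel: number of the 18163 tested genes per bin of 0.1. Insm1 and Neurog1 are filled in all 3 fits, and Neurod1 is on opposite sides of 0 in the large (-0.25) and small (0.28) libraries.

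The increases of Insm1 and Neurog1 held in both classes of library size and in both title codes that hold 2 libraries of each genotype. The log2 fold change of Insm1 was 0.85 in large libraries (over 20000000 counts) and 1.20 in small ones, and 1.07 and 0.95 with title codes 241022 and 14922 alone. That of Neurog1 was 0.92 in large and 0.96 in small libraries, and 1.14 and 0.73 with these codes. Neurod4 did not pass in the small libraries (0.67, edgeR adjusted p = 0.0874) or with code 14922 alone (0.60, adjusted p = 0.103). With code 241022 both Emx2 KO libraries were large and both WT libraries small, and with code 14922 the reverse held, so genotype and library size cannot be told apart in fits of a single code. Within each size class no title code held both genotypes, so genotype and title code cannot be told apart in fits of a single class. A difference of the genotype effect between the 2 codes was called for 0 of the 9 members (edgeR interaction, adjusted p under 0.05), where 1.61% of genes were called. For the same reason this interaction coincides with library size. It cannot tell a difference between codes from an effect of size, which could mask one another. Of the members, Btg2 alone was under 0.05 before adjustment (edgeR adjusted p = 0.688).

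Per length of exon, Neurog2 had the highest level of the 9 in both genotypes, at 172 ± 24.4 CPM per kb in Emx2 KO and 141 ± 14.9 in WT (SD, n = 5 each). Hes6 and Eomes followed, with overlapping ranges in both genotypes. The order below them differed. Insm1, at 70.0 ± 5.19 CPM per kb, ranked 4 in Emx2 KO with a range that overlapped that of Eomes. In WT it ranked 6 at 34.0 ± 4.91 CPM per kb, below Gadd45g (50.8 ± 8.30) and Btg2 (50.1 ± 3.59), which overlapped each other. Neurog1 reached 32.6 ± 3.10 CPM per kb in Emx2 KO and overlapped Neurod1 (31.2 ± 5.46), whereas in WT it stood at 16.5 ± 2.01 CPM per kb, below every library of Neurod1 (30.8 ± 4.34). Neurod4 was lowest in both, at 5.73 ± 0.53 CPM per kb in Emx2 KO and 3.38 ± 0.54 in WT.

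**Figure D3:**
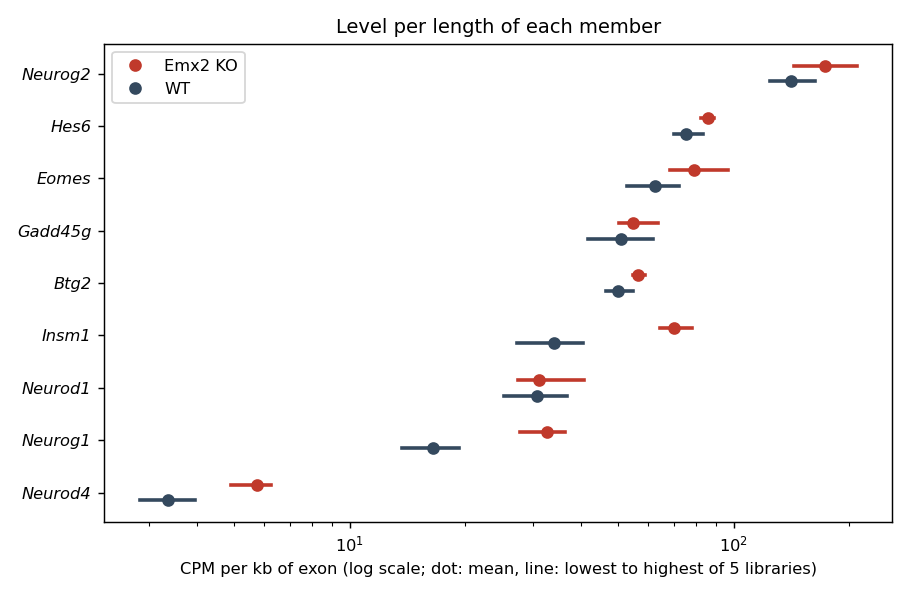
CPM per kb of exon (log axis) of each member, mean as a dot and range over 5 libraries as a line, for Emx2 KO (red, upper) and WT (dark, lower), in the order of the WT means. Insm1, Neurog1 and Neurod4 have separate ranges in the genotypes, at 70.0 against 34.0 CPM per kb for Insm1.

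The members also varied together among libraries of 1 genotype. Deviations of log2 CPM from the genotype mean were positively correlated for all 36 pairs of members over the 10 libraries, with a median r of 0.53 (range 0.11 to 0.97). For each member the median r with all tested genes was within 0.02 of 0. A median over all genes does not show whether other groups of genes vary together as much, which was not tested. Points share the library and its scaling, and r is given as a description only. The closest pair was Eomes and Neurod1 (r = 0.97), which follow each other in the lineage. Their ratio was nearly constant within a genotype but differed between genotypes: log2 CPM of Eomes minus Neurod1 lay between 1.85 and 2.03 in Emx2 KO and between 1.57 and 1.66 in WT. This pair was picked after its values were seen, so no test is given.

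A single library, knockout replicate 5, was the highest of all 10 for 5 members, namely Neurog2, Insm1, Eomes, Neurod1 and Gadd45g. Knockout replicate 4 was the highest for Neurog1, Hes6 and Neurod4. Among WT libraries, replicate 3 was the highest of its genotype for 7 members, and replicates 1 and 2 held the lowest value of all 9. Without knockout replicate 5 the log2 fold change was 0.99 for Insm1, 0.98 for Neurog1 and 0.77 for Neurod4, all past the threshold, but 0.21 for Neurog2, which did not pass.

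**Figure D4:**
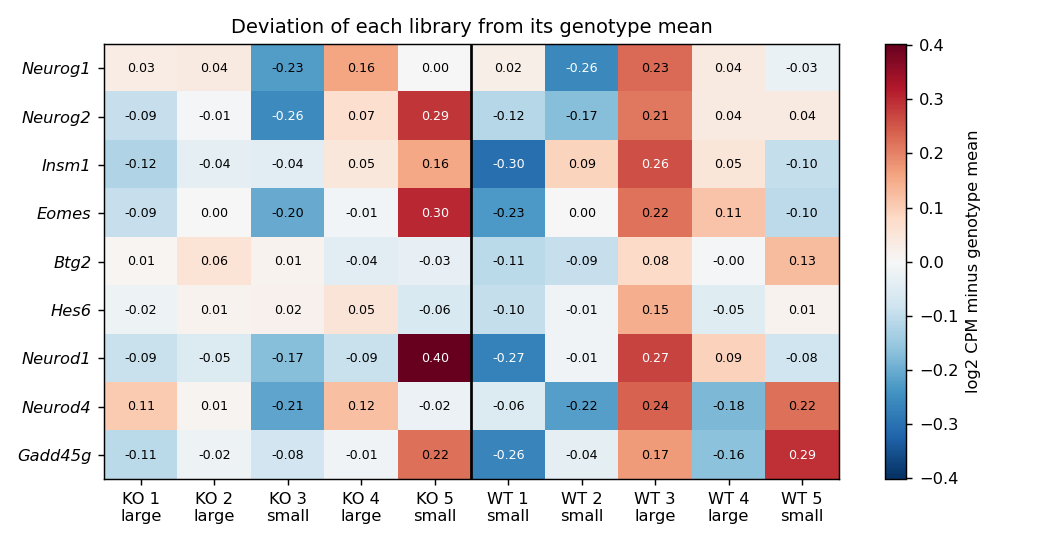
Log2 CPM of each member minus the mean of its genotype, by library (Emx2 KO replicates 1 to 5 left of the line, WT right, with the class of library size). Eomes and Neurod1 share their highs in KO 5 (0.30 and 0.40) and WT 3 (0.22 and 0.27).

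Around these 9 genes, other parts of the proneural network moved in both directions. In 5 lists 61 of 64 genes were tested, of which 21 (34.4%) were higher and 10 (16.4%) lower, against 13.1% and 9.37% of all genes tested. The clearest increase was among Notch ligands and genes described as targets of proneural factors, where 12 of 20 rose, 0 fell and the median log2 fold change was 0.36. Cbfa2t3, a corepressor induced by proneural factors, stood at 58.0 ± 4.18 CPM in Emx2 KO and 28.2 ± 6.31 CPM in WT (SD, n = 5 each, log2 fold change 1.03 ± 0.13, edgeR adjusted p = 0.000188). Rnd3, a small GTPase of migrating neurons, rose by 0.44 ± 0.05, the Notch ligand gene Jag1 by 0.53 ± 0.08 and the mitotic phosphatase gene Cdc25b by 0.32 ± 0.04 on the log2 scale. Dll1, the main Delta ligand of these progenitors and a classical Neurogenin target, averaged 179 CPM in Emx2 KO and 175 CPM in WT, with a log2 fold change of 0.03 ± 0.05 (SE) that did not pass. Of the other Delta genes in this list, Dll3 rose by 0.55 ± 0.10 (SE, edgeR adjusted p = 0.00197), and Dll4 (0.15 ± 0.13) did not pass. Dll1, Dll3 and Dll4 were named after their values were seen.

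Inhibitors of proneural activity split. Of 14 genes 3 rose and 4 fell, against 13.1% and 9.37% of all genes tested, with a median of -0.11. Notch1 rose (369 ± 11.8 CPM in Emx2 KO, 241 ± 5.79 CPM in WT, SD, n = 5 each, log2 fold change 0.61 ± 0.03, edgeR adjusted p = 8.36e-07), while Notch2 fell by 0.51 ± 0.04. The Hes-related repressor genes Hey1 and Hey2 fell by 0.89 ± 0.08 and 2.33 ± 0.16 on the log2 scale. The others called, named after their values were seen, were the Notch effector gene Hes5 and Id2, which rose by 0.48 ± 0.07 and 0.37 ± 0.08, and Rest, which fell by 0.17 ± 0.05. Hes1 (-0.30) did not pass (edgeR adjusted p = 0.0557). Among the E-proteins with which proneural factors pair, Tcf3 rose by 0.20 ± 0.04 and Tcf4 fell, with 660.2 ± 137 CPM in Emx2 KO and 1235 ± 110.0 CPM in WT (SD, n = 5 each, log2 fold change -0.90 ± 0.12, edgeR adjusted p = 0.000284). Knockout replicate 5 had the highest Tcf4 of its group, at 901 CPM against 633 in the next.

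Other neurogenic bHLH genes did not follow as a group. Of 7 tested 5 did not pass, 1 was higher and 1 lower, where 13.1% of all genes tested were higher and 9.37% lower. The lower one was Nhlh2, which fell by 0.37 ± 0.10 on the log2 scale (edgeR adjusted p = 0.0186). Nor did other genes of intermediate progenitors: 4 of 17 rose and 4 fell, with a median of -0.14. Tfap2c, encoding an AP-2 factor of this lineage, rose by 0.76 ± 0.07, the corepressor gene Rcor2 by 0.29 ± 0.04, Slc17a6 by 0.31 ± 0.05 and Cux1 by 0.27 ± 0.05 on the log2 scale. Those that fell, named after their values were seen, were Rhbdl3, Sema3c, Mfap4 and Chd7.

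**Figure D5:**
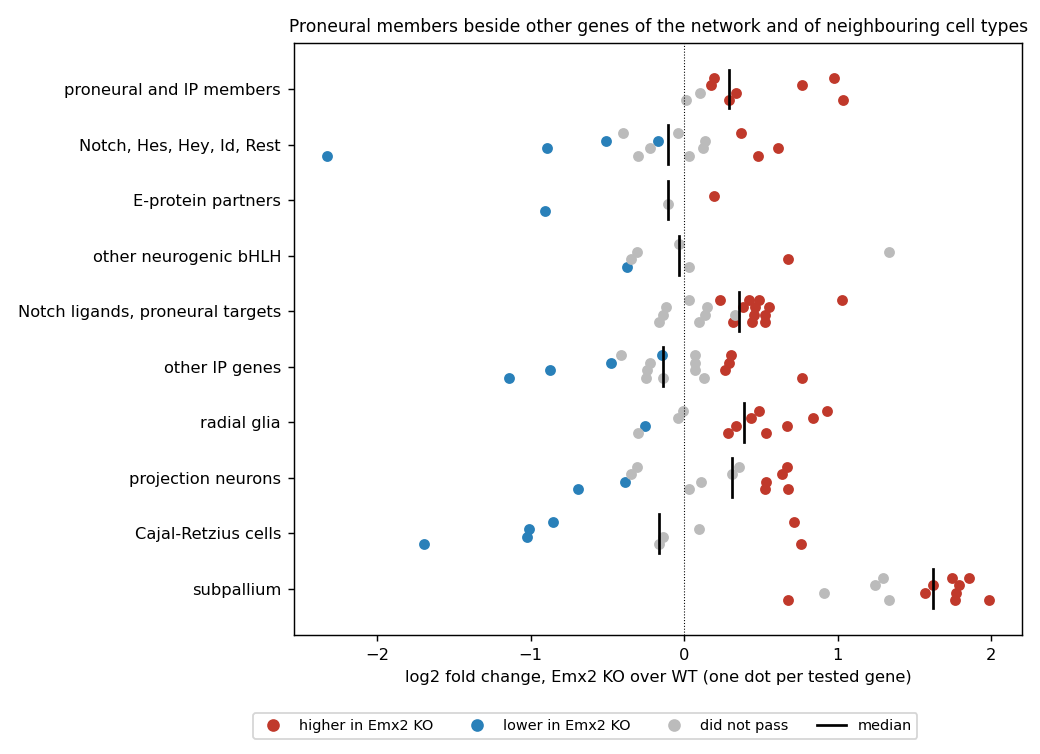
Log2 fold change of Emx2 KO over WT for each tested gene of the 9 members and of 9 other lists (1 row each, 1 dot per gene, black bar at the median), red where higher and blue where lower by edgeR adjusted p under 0.05. The members have no blue dot and a median of 0.29. The median is -0.14 for the other intermediate progenitor genes (IP), 0.39 for radial glia and 0.31 for projection neurons. The subpallial list lies wholly above 0.

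Markers of other cell types moved with the genotype too, where 13.1% of all genes tested were higher and 9.37% lower. Of 12 radial glia genes 8 were higher and 1 lower, with a median log2 fold change of 0.39, against 0.29 for the members. Their summed level was 4392 to 5192 CPM in Emx2 KO and 3792 to 4148 CPM in WT. Of 13 projection neuron genes 5 were higher and 2 lower, with a median of 0.31 (4507 to 5626 CPM in Emx2 KO, 3276 to 4863 CPM in WT). Among the radial glia genes Slc1a3, a glial glutamate transporter gene, changed by 0.67 ± 0.07 on the log2 scale. Among the projection neuron genes Tbr1 changed by 0.67 ± 0.07 and Fezf2, a factor of deep-layer neurons, by -0.69 ± 0.06. Of 9 Cajal-Retzius genes, which mark early neurons of the marginal zone, 2 were higher and 4 lower (234 to 261 CPM in Emx2 KO, 367 to 401 CPM in WT). Choroid plexus genes were lower for 7 of 8, at 64.5 to 101 CPM in Emx2 KO and 275 to 327 CPM in WT. Their part in the differences of the 9 members was not tested.

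The subpallium, which lies ventral to the cortex, also uses Insm1 and Gadd45g. Of 13 tested subpallial genes 9 were higher and 0 lower, against 13.1% and 9.37% of all genes tested. Their summed level was 222 to 816 CPM in Emx2 KO and 128 to 342 CPM in WT, and none of these genes was at 0 in the genotype means. The log2 fold change was 1.86 ± 0.37 for Gsx2 and 1.99 ± 0.41 for Dlx2, homeobox factors of ventral progenitors. Their part in the differences of the 9 members was not tested. By library the sum was 437, 600.5, 816, 414 and 222 CPM in Emx2 KO and 128, 342, 183, 151 and 154 CPM in WT. The genotypes overlapped, since knockout replicate 5 lay below wild-type replicate 2. Genes of meninges and endothelium (0 of 10 called) and of blood and microglia (0 of 10) did not pass, where 22.4% of all genes were called. Of 6 diencephalic genes 1, Barhl2, was higher, which is near the share of all genes (13.1%).

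The number of members called depended on which libraries entered the fit, and so did the share of all genes called higher. In the large libraries 3 members were higher (9% of all genes) and 1 lower (6.64%), and in the small ones 2 were higher (1.67%). With title code 241022 alone 3 were higher (1.05%) and with 14922 alone 2 (4.44%). Without knockout replicate 2 the count was 4 (10.9%), without wild-type replicate 1 it was 4 (10.9%) and without wild-type replicate 2 it was 4 (12.1%). Total counts with no scaling factor gave 4 (9.98%), an adjusted p under 0.01 gave 3 (7.53%) and robust dispersion gave 6 (12.9%).

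Facts of the libraries bear on these values as follows. Emx2 itself stood at 94.6 to 146 CPM in Emx2 KO and 175 to 207 CPM in WT (log2 fold change -0.59 ± 0.10, SE, edgeR adjusted p = 0.00176), lower but not absent. Gene-level counts cannot tell which exons the allele removes. Total counts ran from 13794221 to 30902451 in Emx2 KO and from 9720840 to 35674113 in WT, with 3 large and 2 small libraries in Emx2 KO and 2 large and 3 small in WT. Y-linked transcripts were near 0 in 1 Emx2 KO and 3 WT libraries, and with their level as a covariate 4 members were called higher (10.7% of all genes), with Neurog2 (adjusted p = 0.130), Eomes (0.0846) and Btg2 (0.0632) no longer past the threshold.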

How the data were processed

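RNA-seq read counts per gene were measured in 10 libraries of E12.5 mouse cortex, 5 Emx2 KO and 5 WT, grouped by the genotype in the labels. The authors deposited whole-number counts for each Ensembl identifier without normalization. STAR 2.7.8a, featureCounts 1.6.3-p1 and bcl2fastq 2.20 are named, with builds rn6 and GRCm39, per the submitters' processing notes. Parameters, strand setting and annotation are not given in the sources used here. Symbols were matched for 52073 of 56748 identifiers. Exon lengths, used for levels per kb, came from GENCODE M21 (GRCm38) by identifier, and start regions from RefSeq (GRCm38.p6).

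Genes were filtered with filterByExpr (minimum count 10), with TMM scaling. Genotypes were compared in edgeR 4.0.16 (R 4.3.3) by the quasi-likelihood test with genotype as the only term and default dispersion settings, two-sided, with Benjamini-Hochberg adjustment over the 18163 genes tested and a threshold of 0.05. Standard errors were derived from the F statistic. CPM used TMM-scaled totals. Pairs of genes were compared as differences of log2(CPM + 0.5) by exact permutation over libraries. The procedure was tested on simulated counts. Libraries of a genotype differed by more than sampling noise in all 20 pairs (chi-square per gene at least 9.06), so none were merged.

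The members and lists were chosen with earlier results of these data known. The rule for naming genes covered the members, Emx2 and up to 4 called genes per list with the smallest p. It also covered the 5 genes most like the members over the libraries. The text adds genes marked as named after their values were seen. For the lists of other cell types, only some of the genes that the rule names are printed. A gene that this rule names is not reported here. Alternatives were other scalings, filters and tools, blocks for title code and size class, single classes and codes, and each library left out. Y-linked expression as a covariate and robust dispersion were added after seeing the data.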

Additional observations from a re-analysis of the deposited data

Results flagged for a closer look

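Among 96 groups of 5 libraries (48 named genes, 2 genotypes), 8 had 1 library set apart from the other 4. The measure was its distance to the nearest other library over the range of the group. Chance gives about 1 in 20. Among Emx2 KO libraries, replicate 5 was the highest for Neurod1 (ratio 0.826, 111 CPM against 81.1 in the next), Gadd45g (0.734, 74.5 against 63.2 CPM) and Tcf4 (0.799, 901 against 633 CPM), and the lowest for Gsx2 (0.814, 2.91 against 12.0 CPM). Knockout replicate 1 was the highest for Trp73 (0.866, 25.8 against 14.9 CPM). In WT, replicate 5 was the highest for Nhlh2 (0.820, 106 against 86.3 CPM), replicate 2 the highest for Dlx2 (0.716, 42.5 against 18.8 CPM) and replicate 1 the lowest for Slc17a6 (0.783, 87.6 against 95.6 CPM).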

How the results depend on the processing

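Insm1 and Neurog1 passed under all 26 alternatives (log2 fold change 0.85 to 1.20 and 0.73 to 1.14), and Gadd45g under none. Of the 7 members called higher, 4 passed with total counts alone or with the Y-linked covariate, 3 at an adjusted p under 0.01, in the large libraries or with title code 241022, and 2 in the small libraries or with code 14922. In the large libraries 1 member was called lower, Neurod1 (-0.25). Leaving out 1 library gave 4 to 7 members higher and 0 lower. The count was 4 without knockout replicate 2 and without wild-type replicate 1 or 2. Over all genes, these fits tested 17400 to 19140 and called 1815 to 2312 higher and 1302 to 1764 lower. Genes called numbered 4074, and 2203 at an adjusted p under 0.01, 558 in the small libraries, 443 with code 241022 and 1414 with code 14922, and 3117 to 4014 with 1 library left out. Of these calls 2372 were higher and 1702 lower, but 1927 and 2269 under upper-quartile scaling and 1812 and 2475 with total counts alone. For the 5 network lists, 21 higher became 5, 3 and 12 and 10 lower became 3, 4 and 8 in the small libraries, with code 241022 and with code 14922, and 6 were lower at an adjusted p under 0.01. Leaving out 1 library gave 20 to 22 higher and 7 to 13 lower. The genotype difference of Neurod1 minus Neurod4 was -0.73 over all libraries, -1.04 in large ones and -0.40 in small ones. That of Tbr1 minus Eomes was 0.33, 0.51 and 0.16, and 0.29 to 0.39 with 1 library left out. The causes were not tested. Robust dispersion gave 6 members higher, without Neurog2 (adjusted p = 0.0582). No paired analysis was possible because the replicate numbers only follow accession order. The title code as a block, which groups libraries without pairing them, gave 7 members higher. Of the 18163 genes tested it called 4067, of which 2320 were higher and 1747 lower. Fewer libraries in single classes limit what such fits can call, and within each size class the genotypes shared no title code.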

Other observations

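Outside the 9 members, the genes whose log2 CPM over the 10 libraries was most like the mean of the members' standardised values were Klf13 (r = 0.961), Eif1b (0.960), Ttyh3 (0.959), Tob2 (0.957) and Trir (0.957). Points share the genotype difference, so genes higher in the knockout rank high, and r is a description only. Klf13, a Krüppel-like factor gene, averaged 119.9 ± 5.91 CPM in Emx2 KO and 96.5 ± 6.30 CPM in WT (SD, n = 5 each). Tob2, which belongs to the same antiproliferative family as Btg2, averaged 56.6 ± 3.23 CPM in Emx2 KO and 48.5 ± 4.01 CPM in WT (SD, n = 5 each).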
